A study of Mus musculus with 8 samples.

Results

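Polycomb repressive complex 1.6 (PRC1.6) was followed through 10 of its genes in 4T1, a metastatic mouse mammary tumor line used as a model of triple-negative breast cancer. The 10 genes were E2f6, Mga, Max, Tfdp1, Pcgf6, L3mbtl2, Rybp, Yaf2, Ring1 and Rnf2, taken by symbol from the 54532 genes in the count tables. E2f6 and Mga were picked because each had counts in only 1 of the 2 lines, so their line difference is described here without a test, and the other 8 genes were taken because they encode subunits of the same complex. All 10 passed the filter on low counts, E2f6 only through the scramble libraries and Mga only through the shMCT-1 libraries.

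The cells carried a stable plasmid with a short hairpin RNA that silences MCT-1 (the shMCT-1 line) or a scramble hairpin (the scramble line), under puromycin selection, and whether a line grew from 1 clone is not stated. Each line was treated for 48 h with 100 ng/ml of an antibody against the IL-6 receptor (anti-IL-6R) or with a control antibody (IgG), which gave 4 groups of 2 libraries each, named here by line and antibody (scramble + IgG and so on). Poly(A) RNA was sequenced from 8 cultures, which the submitters call independent biological replicates. Each hairpin was studied in 1 line, so the silencing of MCT-1 and any other difference between these 2 lines cannot be told apart, and in bulk RNA fewer cells with a transcript and less of it per cell cannot be told apart either.

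PRC1.6 is one of the variant Polycomb complexes that attach ubiquitin to histone H2A. RING1 and RNF2 (RING1B) are its ubiquitin ligases, PCGF6 is the subunit that defines it, RYBP or YAF2 stimulate the ligase, and L3MBTL2 binds chromatin. The complex is brought to DNA by 2 pairs of transcription factors, MGA with MAX, which read E-boxes, and E2F6 with DP1 (encoded by Tfdp1), which read E2F sites. MGA also holds the subunits together as a scaffold. In embryonic stem cells and somatic cells the complex is known for keeping genes of the germline and of meiosis silent.

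The depth of the libraries was between 19839299 and 33063570 counts. The shMCT-1 libraries were the shallower ones, with at most 23448587 counts against at least 24100084 in scramble. Levels are given as counts per 1000000 counts of the library (CPM), and 1 CPM stood for 19.8 to 33.1 counts. Mcts1, the gene of MCT-1, was at 15.4, 11.8, 12.8 and 13.5 CPM in the scramble libraries and at 6.32, 6.18, 6.70 and 4.92 CPM in the shMCT-1 libraries. It was lower in shMCT-1 by a log2 fold change of -1.08 (SE 0.17, edgeR adjusted p = 0.000676) with IgG and of -1.13 (SE 0.17, edgeR adjusted p = 0.000557) with anti-IL-6R. Keratins and E-cadherin of the mammary tumor cells were present in all 8 libraries, Krt8 at 1031 to 1429 CPM and Cdh1 at 245 to 315 CPM. Of the 6 epithelial markers 5 stood higher in every shMCT-1 library than in any scramble library, as did 29.9% of all genes tested. The keratin gene Krt19, not among the 6, was lower in shMCT-1, at a mean of 0.552 CPM against 18.4 CPM in scramble. The 6 summed to 2330 to 2483 CPM in scramble and 3145 to 3409 CPM in shMCT-1, and among the 6 the largest folds were those of Epcam (3.75 to 4.93 CPM against 49.4 to 54.5 CPM) and Cldn4 (4.85 to 6.36 CPM against 71.8 to 77.9 CPM). Of 5 leukocyte markers 3, Cd3e and Adgre1 among them, were at 0 in every library, and the 5 together summed to at most 0.182 CPM. The 3 endothelial markers summed to 0.0960 to 0.332 CPM in scramble and 0.555 to 1.82 CPM in shMCT-1, and the 5 fibroblast markers to 15.3 to 17.3 and 12.7 to 16.3 CPM, nearly all of it Pdgfra; their part in the results was not tested.

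Among the DNA-binding factors, E2f6 and Mga differed between the lines in the presence of RNA, the pattern for which they were chosen, while Max and Tfdp1 had RNA in both. E2f6 (ENSMUSG00000057469; GRCm38, chr12:16810963-16839742, + strand) had 724 and 556 counts in the scramble + IgG libraries and 740 and 873 in the scramble + anti-IL-6R libraries. All 4 shMCT-1 libraries had 0 counts. In CPM the scramble libraries stood at 26.3, 23.1, 23.7 and 26.4, a mean of 24.9 ± 1.74 (SD, n = 4), so E2f6 was at least 724-fold lower in shMCT-1, against a floor of 3 counts over the 4 shMCT-1 libraries together. Counting error alone is covered by that bound.

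Mga (ENSMUSG00000033943; GRCm38, chr2:119897228-119969581, + strand) had the opposite pattern. It had 464 and 560 counts with IgG and 333 and 543 counts with anti-IL-6R in the shMCT-1 line, which were 21.2, 23.9, 16.8 and 24.7 CPM, a mean of 21.7 ± 3.57 (SD, n = 4). In the scramble line it had 1 count in scramble + IgG replicate 1 and 0 in the other 3 libraries. The shMCT-1 libraries together held 1900 counts against 1, a ratio of the pooled CPM of 2530 (95% exact counting interval 453 to 99900). In every library, then, 1 of the 2 factors was at 0 or 1 count, and the other 9 of the 10 genes had RNA. RNA was measured and protein was not.

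**Figure D1:**
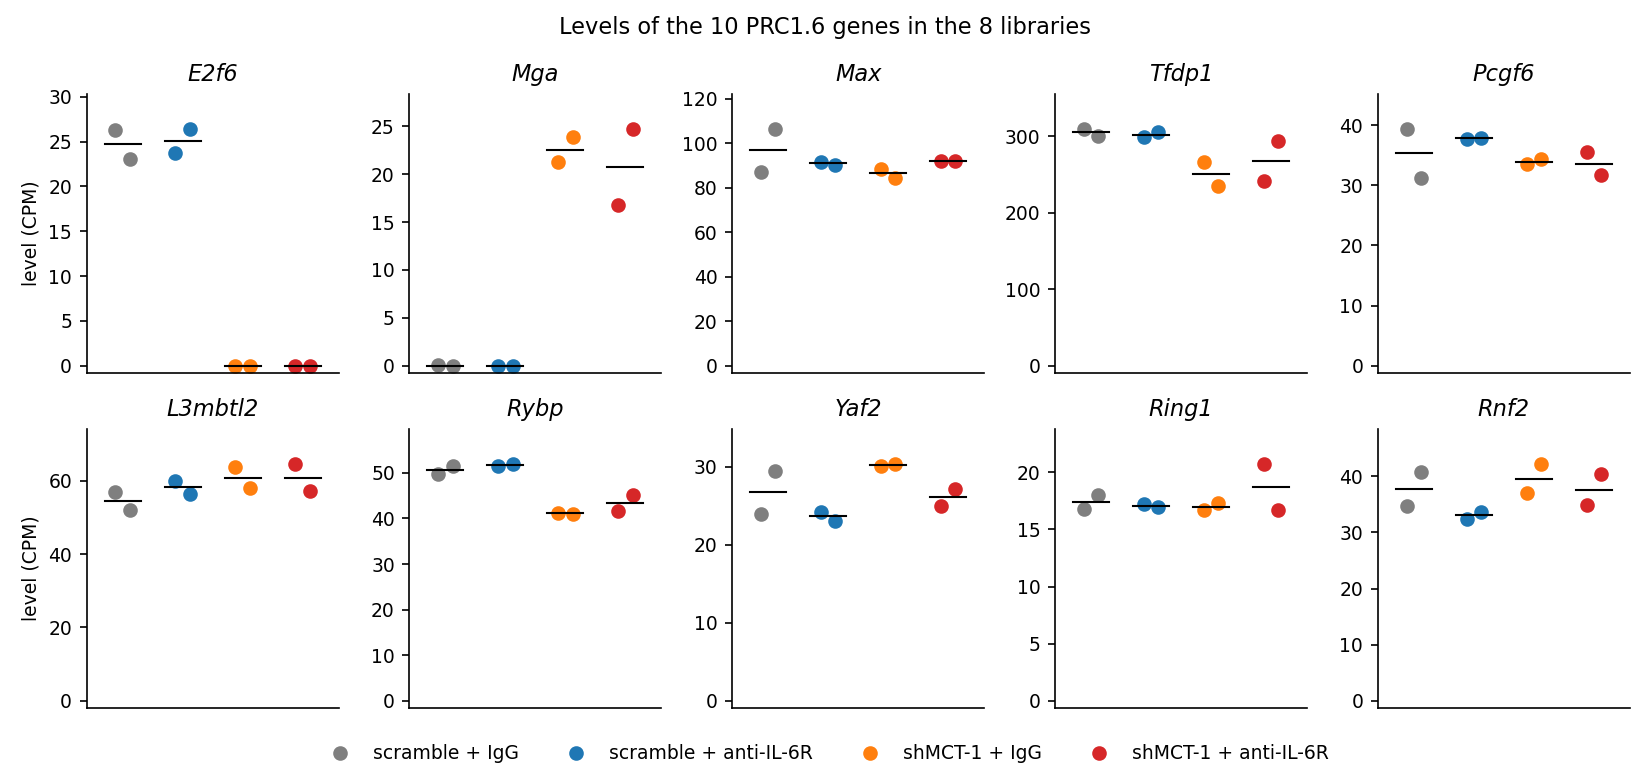
Level (CPM, axis from 0) of the 10 PRC1.6 genes in each of the 8 libraries, by group; points are libraries and the black line is the mean of the 2 libraries of a group. E2f6 is at 0 in the 4 shMCT-1 libraries and at 23.1 to 26.4 CPM in scramble, Mga is at 0 or near it in scramble and at 16.8 to 24.7 CPM in shMCT-1, and the other 8 genes are present in all libraries.

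The promoter windows of E2f6 and Mga are shown because the RNA of each gene was found in 1 line only. Each sequence runs 5′ to 3′ from 250 bases before to 50 bases after the RefSeq start (GRCm38.p6), and no part is in capitals because neither window holds the E2F6 or MAX motif searched further on. The E2f6 window is chr12:16810715-16811014 (+ strand) and the Mga window chr2:119896978-119897277 (+ strand).
E2f6: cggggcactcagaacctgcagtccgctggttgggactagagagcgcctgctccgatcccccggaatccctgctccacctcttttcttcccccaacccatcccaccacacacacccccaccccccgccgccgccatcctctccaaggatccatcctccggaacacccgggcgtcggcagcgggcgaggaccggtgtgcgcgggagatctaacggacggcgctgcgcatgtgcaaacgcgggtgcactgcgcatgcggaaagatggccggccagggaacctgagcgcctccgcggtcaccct
Mga: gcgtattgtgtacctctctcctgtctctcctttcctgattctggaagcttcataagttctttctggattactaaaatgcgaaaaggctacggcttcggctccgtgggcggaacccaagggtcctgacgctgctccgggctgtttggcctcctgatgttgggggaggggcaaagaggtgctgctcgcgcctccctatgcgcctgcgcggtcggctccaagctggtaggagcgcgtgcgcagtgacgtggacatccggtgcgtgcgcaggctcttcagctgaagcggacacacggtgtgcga

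How unusual such a pattern was among all genes was counted with a rule of at most 3 counts in every library of one line and at least 5 CPM in every library of the other. E2f6 was the only gene, 1 of 9605 with that level in scramble (0.0104%), that was missing from shMCT-1. In the other direction 11 of 9636 genes (0.114%) were missing from scramble, and Mga stood highest among them, followed by Sgsm1 at 11.2 CPM, Chchd10 at 10.8 CPM and Dact2 at 10.2 CPM. Among 3744 other coding genes within 2-fold of the E2f6 level in scramble, the median in shMCT-1 was 26.5 CPM and the lowest was Fam83a at 0.220 CPM. Among 3775 other coding genes within 2-fold of the Mga level in shMCT-1, the median in scramble was 24.6 CPM and the lowest was Chchd10 at 0.0179 CPM. These counts describe the pattern that chose the genes and test nothing.

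**Figure D2:**
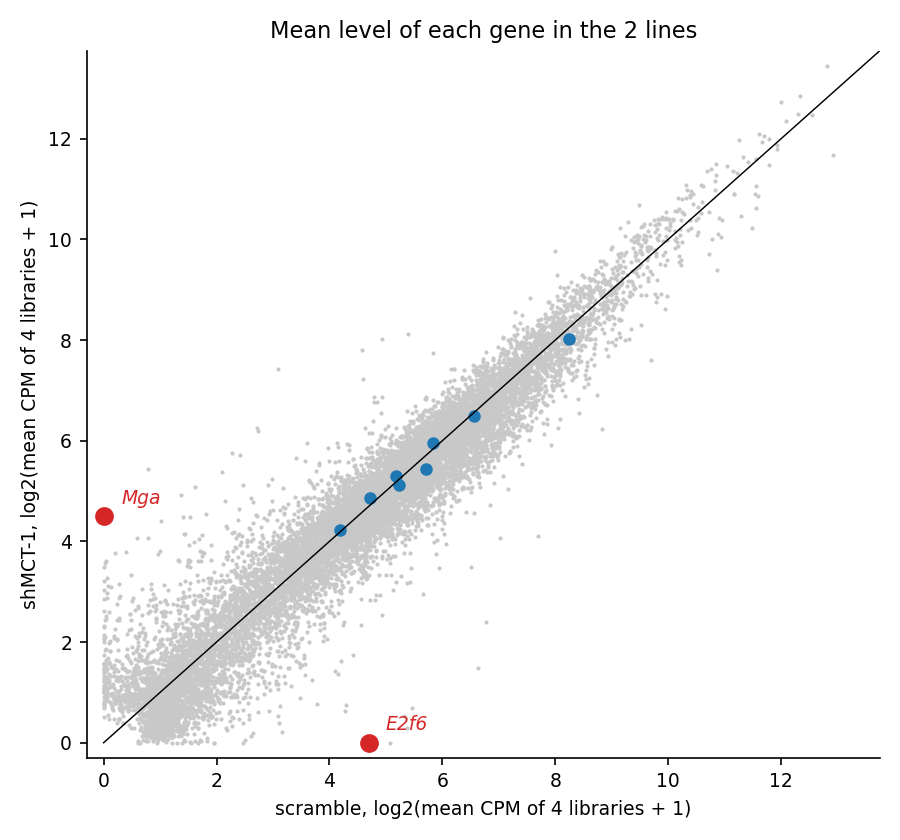
Mean level of each gene in the scramble libraries (x axis) and the shMCT-1 libraries (y axis), as log2(mean CPM of 4 libraries + 1), for genes that reached 1 CPM in a library (grey); the 10 PRC1.6 genes are in color and the line marks equal levels. E2f6 lies on the x axis and Mga on the y axis, while the other 8 genes (blue) lie close to the line; the grey point beside E2f6 is Gm28037, which had 0 counts in 2 of the 4 scramble libraries.

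The genes with the pattern most like that of E2f6, by Euclidean distance of log2(CPM + 1) over the 8 libraries, were Fam83a (distance 1.53), the keratin gene Krt19 (1.56), the adenylyl cyclase gene Adcy3 (1.70), Gm3448 (1.74) and the hyaluronan synthase gene Has3 (2.07). Krt19 was at 18.4 CPM in scramble and 0.552 CPM in shMCT-1, and Adcy3, which is on chromosome 12 as E2f6 is, at 39.1 and 0.444 CPM. Mga was most like Igfbp7 (1.53), the aldolase gene Aldoc (1.69), Sgsm1 (1.84), Apol9b (1.89) and Chchd10 (1.96). Of these 5, Igfbp7 was at 0.154 CPM in scramble and 12.6 CPM in shMCT-1. All of these distances reflect the line above all, since the 8 libraries hold only 2 lines.

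Their partners in DNA binding were present in both lines. Max (ENSMUSG00000059436; chr12:76937269-76962201), which pairs with MGA and with the MYC and MXD proteins, was at 87.1 and 106 CPM in scramble + IgG, 91.6 and 90.2 CPM in scramble + anti-IL-6R, 88.4 and 84.4 CPM in shMCT-1 + IgG and 91.7 and 92.1 CPM in shMCT-1 + anti-IL-6R. The libraries of the 2 lines overlapped, and Max is on the same chromosome as E2f6. Tfdp1 (ENSMUSG00000038482; chr8:13338751-13378448), whose product DP1 pairs with E2F proteins, was at 310, 301, 299 and 306 CPM in scramble and at 267, 236, 242 and 293 CPM in shMCT-1, in the same order of groups. All 4 shMCT-1 libraries were below all 4 scramble libraries, yet the log2 fold change of -0.24 with IgG (SE 0.10, edgeR adjusted p = 0.0764) and of -0.12 with anti-IL-6R (SE 0.10, edgeR adjusted p = 0.347) did not pass the test. Tfdp1 transcripts are 99.1% identical over 755 bases to the processed pseudogene Gm7390, which was at no more than 3.29 CPM, so its reads could be split between the 2.

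Pcgf6 (ENSMUSG00000025050; chr19:47033617-47050906), the defining subunit, was at 39.4, 31.2, 37.7 and 37.9 CPM in scramble and at 33.5, 34.4, 35.5 and 31.8 CPM in shMCT-1. L3mbtl2 (ENSMUSG00000022394; chr15:81663889-81688315), the chromatin reader, was at 56.9, 51.9, 60.0 and 56.5 CPM in scramble and at 63.6, 57.9, 64.5 and 57.2 CPM in shMCT-1. Both overlapped between the lines, and 1023 exon bases of L3mbtl2 lie opposite the gene Chadl, which was at no more than 1.28 CPM.

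The ligase genes did not pass the test between the lines. Ring1 (ENSMUSG00000024325; chr17:34020792-34024680) was at 16.8, 18.1, 17.2 and 16.9 CPM in scramble and at 16.7, 17.3, 20.7 and 16.7 CPM in shMCT-1. Rnf2 (ENSMUSG00000026484; chr1:151458004-151500955) was at 34.7, 40.8, 32.4 and 33.6 CPM in scramble and at 37.0, 42.2, 34.9 and 40.4 CPM in shMCT-1. Both overlapped between the lines, and Ring1 made up 38.4% ± 1.81 (SD, n = 4) of the summed level per kb of exon of the 2 ligase genes in scramble and 37.1% ± 4.12 (SD, n = 4) in shMCT-1. Rnf2 shares 158 exon bases with Trmt1l on the opposite strand, which reached 33.6 CPM, and whether the counting used strand is not stated.

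Of the paralogs that stimulate the ligases, Rybp was lower in shMCT-1. Rybp (ENSMUSG00000072872; chr6:100228565-100287485) was at 49.7, 51.5, 51.6 and 51.9 CPM in scramble and at 41.3, 41.0, 41.6 and 45.1 CPM in shMCT-1, with no overlap. Yaf2 (ENSMUSG00000022634; chr15:93284278-93336935) was at 23.9, 29.5, 24.2 and 23.1 CPM in scramble and at 30.1, 30.3, 25.0 and 27.2 CPM in shMCT-1, with overlap. Yaf2 made up 55.3% ± 2.7 (SD, n = 4; 52.9% to 59.2%) of the summed level per kb of the pair in scramble and 62.7% ± 2.7 (SD, n = 4; 60.3% to 65.2%) in shMCT-1. The 2 ranges did not overlap, and this ratio was not tested. Rybp is 99.3% identical over 681 bases to the pseudogene Rybp-ps, which stayed at or below 0.430 CPM.

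Across the 8 genes that were not chosen by their level, 1 passed the test between the lines with IgG, Rybp, with a log2 fold change of -0.26 (SE 0.08, edgeR adjusted p = 0.0261), and none was higher; 2 of the 8, Rybp and Tfdp1, had an unadjusted p under 0.05, against 60.2% of all genes. Of all 12704 genes tested 54.4% passed in that comparison, 28.3% higher and 26.2% lower in shMCT-1. With anti-IL-6R 0 of the 8 genes passed in edgeR, where 54.3% of all genes did (26.9% higher and 27.3% lower). There 1 of the 8 had an unadjusted p under 0.05, against 60.3% of all genes, which was Rybp at -0.20 (SE 0.08, edgeR adjusted p = 0.0669). DESeq2 also gave 0 there and gave 2 with IgG, Rybp and Tfdp1. The fold changes ran from -0.26 (Rybp) to 0.22 (Yaf2) with IgG, with a median of -0.00326, and from -0.20 (Rybp) to 0.24 (Rnf2) with anti-IL-6R, with a median of 0.0954; the median of all genes was 0.0108 and 0.00798. Of the 8 genes 2, Tfdp1 and Rybp, had lines that did not overlap, both lower in shMCT-1, against 64.1% of all genes without overlap (29.9% higher and 34.2% lower).

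The Rybp call did not hold in several alternatives. Without a filter on low counts its edgeR adjusted p was 0.127, and it ranged from 0.0597 to 0.107 without scramble + IgG replicate 2, either scramble + anti-IL-6R library or either shMCT-1 + IgG library. Leaving out other libraries added calls with IgG for Max (without scramble + IgG replicate 1), Yaf2 (without scramble + IgG replicate 2) and Tfdp1 (without either shMCT-1 + anti-IL-6R library). With anti-IL-6R it added Rybp (without either scramble + IgG library) and Ring1 (without shMCT-1 + anti-IL-6R replicate 2).

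Per kb of exon the order of the levels was nearly the same in both lines. In scramble Tfdp1 stood highest at 82.8 ± 1.31 CPM per kb (SD, n = 4), followed by Max (26.1 ± 2.37), Yaf2 (13.4 ± 1.56), Rybp (10.8 ± 0.208), L3mbtl2 (9.47 ± 0.563), Rnf2 (8.58 ± 0.900), Pcgf6 (7.27 ± 0.720), Ring1 (5.32 ± 0.174) and E2f6 (4.39 ± 0.307). L3mbtl2 and Rnf2, and Rnf2 and Pcgf6, differed by less than the sum of their SDs. In shMCT-1 Tfdp1 (70.7 ± 7.19 CPM per kb), Max (24.8 ± 0.998) and Yaf2 (15.0 ± 1.36) again stood first and Mga (1.41 ± 0.233) stood last of the 9 with RNA. L3mbtl2 (10.2 ± 0.640), Rnf2 (9.35 ± 0.797) and Rybp (8.91 ± 0.408) followed Yaf2, each within the sum of the SDs of the next, and Pcgf6 (6.72 ± 0.311) and Ring1 (5.50 ± 0.598) came after them. E2f6 in scramble and Mga in shMCT-1 were thus the lowest per kb of the 9 genes with RNA in that line. In CPM Ring1 was below them, at a mean of 17.2 against 24.9 for E2f6 in scramble and 17.8 against 21.7 for Mga in shMCT-1.

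No PRC1.6 gene passed the test for an effect of the antibody against the IL-6 receptor. In scramble 0 of 9 genes (Mga left out) passed in edgeR, as did 0% of all genes tested, and in shMCT-1 0 of 9 (E2f6 left out), again with 0% of all genes. At an unadjusted p under 0.05 there were 0 of 9 in each line, against 1.31% of all genes in scramble and 3.98% in shMCT-1, and no other tool or setting that was run called any of them. The 0% of all genes holds for the main fit. For the antibody edgeR's exact test called 10 genes in scramble and 14 in shMCT-1. Without a filter edgeR called 64 and 133, and DESeq2 called 0 and 11. E2f6 in scramble had a log2 fold change of 0.01 (SE 0.12) and Mga in shMCT-1 one of -0.11 (SE 0.18) upon anti-IL-6R, both with an edgeR adjusted p of 1. The other values ran from -0.20 (Rnf2) to 0.09 (Pcgf6) in scramble and from -0.21 (Yaf2) to 0.14 (Ring1) in shMCT-1. The difference of the antibody's effect between the lines, tested as an interaction, passed for 0 of the 8 genes present in both and for 0% of all genes, with 0 of 8 and 2.48% at an unadjusted p under 0.05. Over all genes DESeq2 called 6 for the interaction, and edgeR without a filter called 97. The standard errors of these changes were 0.08 to 0.18, and a change within them was not detectable with 2 libraries a group. Changes beyond them could go uncalled too, as Rnf2 at -0.20 in scramble had an unadjusted edgeR p of 0.117.

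Subunits that PRC1.6 shares with other complexes were called in both directions. Of the 7 other subunits measured, 1 was higher and 3 were lower in shMCT-1 with IgG (57.1% against 54.4% of all genes), and 2 were higher and 3 lower with anti-IL-6R (71.4% against 54.3%). The histone methyltransferase gene Ehmt1, whose product GLP deposits methyl marks on histone H3, was at 71.1 to 80.8 CPM in scramble and at 40.4 to 51.2 CPM in shMCT-1. Its log2 fold change was -0.55 (SE 0.11, edgeR adjusted p = 0.00272) with IgG and -0.71 (SE 0.11, edgeR adjusted p = 0.000648) with anti-IL-6R, while its partner Ehmt2 (G9a) had 0.12 and 0.06 and did not pass. Tfdp2, which encodes another DP partner of E2F proteins, was lower by 0.67 and 0.77 on the log2 scale (values of -0.67 and -0.77), and it made up 1.52% ± 0.0769 (SD, n = 4) of the summed Tfdp1 and Tfdp2 level per kb in scramble and 1.05% ± 0.105 (SD, n = 4) in shMCT-1.

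The WD-repeat gene Wdr5 was lower as well, with log2 fold changes of -0.36 and -0.35. The deacetylase gene Hdac1 was higher, at 0.39 and 0.34, with 90.2 to 101 CPM in scramble and 112 to 128 CPM in shMCT-1, and its paralog Hdac2 had -0.12 and -0.07 and did not pass. Leaving out 1 library gave Hdac1 changes of 0.29 to 0.49 with IgG and 0.29 to 0.37 with anti-IL-6R, which were not always called. Hdac1 made up 39.7% ± 1.02 (SD, n = 4) of the pair's summed level per kb in scramble and 47.5% ± 1.02 (SD, n = 4) in shMCT-1. Cbx3, which encodes the heterochromatin protein HP1 gamma, had 0.18 (edgeR adjusted p = 0.141) with IgG and 0.33 (edgeR adjusted p = 0.0139) with anti-IL-6R. The count with anti-IL-6R fell from 5 to 2 without scramble + anti-IL-6R replicate 1 and to 3 without scramble + anti-IL-6R replicate 2.

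**Figure D3:**
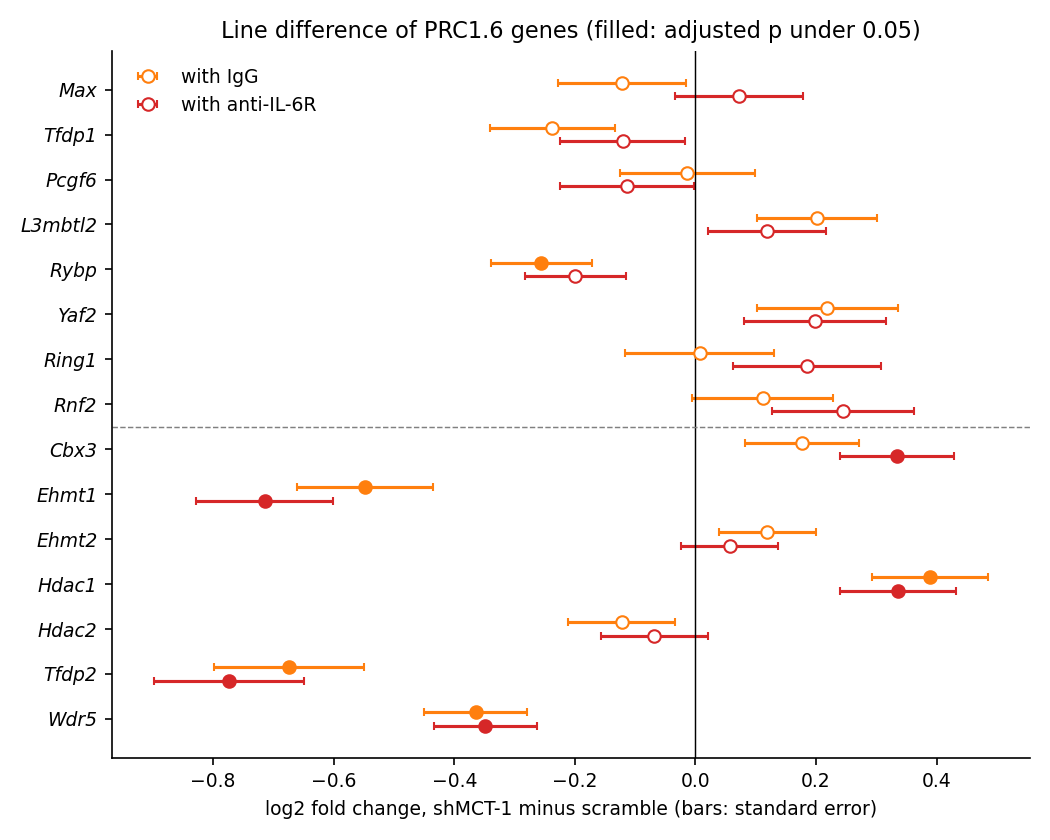
Log2 fold change between shMCT-1 and scramble (bars: standard error; values above 0 are higher in shMCT-1) with IgG and with anti-IL-6R, for the 8 PRC1.6 genes not chosen by their level (above the dashed line) and the 7 other subunits (below it); filled points have an edgeR adjusted p under 0.05. Among the 8 genes the values lie between -0.26 and 0.24 and 1 point is filled, and among the 7 subunits Ehmt1, Tfdp2 and Wdr5 are lower and Hdac1 is higher with either antibody.

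Genes of the other PRC1 complexes, which are built on other PCGF proteins or carry CBX and PHC subunits, moved in both directions. Of 19 such genes 18 were tested (Auts2 was nearly without counts), with 6 higher and 5 lower in shMCT-1 with IgG (61.1% against 54.4% of all genes) and 4 higher and 4 lower with anti-IL-6R (44.4% against 54.3%). Phc3, a polyhomeotic gene of canonical PRC1, was at 55.4 to 63.2 CPM in scramble and at 24.8 to 33.7 CPM in shMCT-1, with log2 fold changes of -1.15 (SE 0.13, edgeR adjusted p = 9.7e-05) and -0.90 (SE 0.13, edgeR adjusted p = 0.000345). Bmi1 (PCGF4), which stands in canonical PRC1 in the place that PCGF6 has in PRC1.6, fell by 0.69 with IgG and by 0.52 with anti-IL-6R on the log2 scale. Pcgf5, the defining subunit of another variant complex, was lower as well at -0.50 and -0.48. The median of the 18 was -0.0134 with IgG and -0.0165 with anti-IL-6R, close to that of all genes. The count of 11 with IgG fell to 6 without scramble + IgG replicate 2 or shMCT-1 + IgG replicate 2 and to 7 without shMCT-1 + IgG replicate 1, and the count of 8 with anti-IL-6R fell to 4 or 5 without scramble + anti-IL-6R replicate 1 or 2 and to 5 when replicate 1 of shMCT-1 + anti-IL-6R was left out.

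Genes of the MAX network, the E-box factors that compete for MAX or work beside it, were found on both sides as well. Of 11 genes 9 were tested (Mycn was at 0 and Mlxipl nearly so), with 3 higher and 4 lower in shMCT-1 with IgG (77.8% against 54.4% of all genes) and 2 higher and 3 lower with anti-IL-6R (55.6% against 54.3%), and medians of -0.42 and -0.28. Myc, the best known partner of MAX, was at 561 to 596 CPM in scramble and 374 to 437 CPM in shMCT-1, with log2 fold changes of -0.48 (SE 0.09, edgeR adjusted p = 0.00195) and -0.33 (SE 0.09, edgeR adjusted p = 0.0137). The paper instead reports Myc as higher in shMCT-1 than in scramble with anti-IL-6R, with RT-PCR beside it. The reason for the difference was not tested. Mxd4, a repressor partner of MAX, was lower at -0.97 and -1.06, and Mycl was higher at 0.65 and 0.65. Mlx and Mlxip, which encode the 2 partners of a glucose-responsive dimer, had opposite directions, with 0.60 and 0.57 for Mlx and -0.58 and -0.73 for Mlxip. Mlx shares 385 exon bases with Psmc3ip on the opposite strand, which reached 19.3 CPM. The count with anti-IL-6R was 3 without scramble + anti-IL-6R replicate 2.

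**Figure D4:**
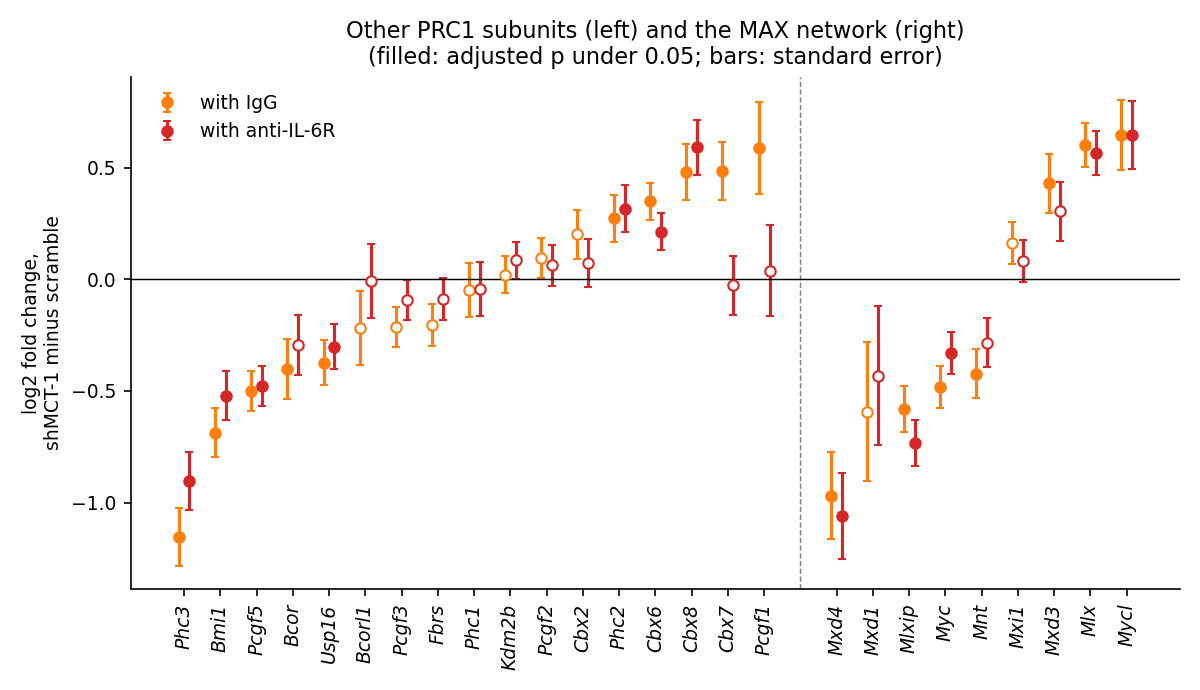
Log2 fold change between shMCT-1 and scramble (bars: standard error) with IgG and with anti-IL-6R for 17 of the 18 tested genes of other PRC1 complexes (left of the dashed line) and the 9 tested genes of the MAX network (right), each ordered by the value with IgG; filled points have an edgeR adjusted p under 0.05. Phc3 (-1.15 and -0.90) and Mxd4 (-0.97 and -1.06) lie lowest, and the filled points stand on both sides of 0.

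Germline genes are the classical targets of PRC1.6, and 25 of them were listed. Of these 7 were at 0 in every library, 17 had at most 3 counts in each library, and 23 stayed under 1 CPM in all 8. The sequence of their promoters was read for the 2 motifs of the complex, TTCCCGC for E2F6 and CACGTG (the E-box) for MAX dimers, on both strands of the RefSeq windows (GRCm38.p6, 250 bases before to 50 after the start). CACGTG is its own reverse complement, the 2 motifs can share 1 letter where their ends meet, and TTCCCGC is also read by other E2F factors. TTCCCGC was found in 11 of the 23 germline genes with a window (47.8%) and in 5.29% of all 27025 genes, CACGTG in 11 of 23 (47.8%) and 8.09%, and both in 1 window in 5 of 23 (21.7%) and 0.514%. The T-box motif AGGTGTGA, for the second DNA-binding domain of MGA, was found in 1 of 23 (4.35%), Sycp3, and in 1.48% of all genes. The list was drawn from genes known as targets of E2F6 or PRC1.6, so these shares are a description, and a match is not a binding site.

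The windows of Stag3, Slc25a31 and Hormad1, which hold both motifs, and of Msh5 and Sycp1, the 2 germline genes with the most RNA, are shown with the E2F6 motif, on either strand, and the E-box in capitals. They are chr5:138280259-138280558 (Stag3, + strand), chr3:40708621-40708920 (Slc25a31, + strand), chr3:95559427-95559726 (Hormad1, + strand), chr17:35046573-35046872 (Msh5, - strand) and chr3:102936051-102936350 (Sycp1, - strand), each written 5′ to 3′ on the strand of its gene.
Stag3: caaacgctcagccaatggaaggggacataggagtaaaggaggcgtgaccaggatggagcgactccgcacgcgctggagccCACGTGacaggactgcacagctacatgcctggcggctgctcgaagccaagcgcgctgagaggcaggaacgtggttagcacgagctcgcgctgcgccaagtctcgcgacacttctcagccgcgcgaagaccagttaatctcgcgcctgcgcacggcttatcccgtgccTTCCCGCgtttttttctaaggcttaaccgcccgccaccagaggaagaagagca
Slc25a31: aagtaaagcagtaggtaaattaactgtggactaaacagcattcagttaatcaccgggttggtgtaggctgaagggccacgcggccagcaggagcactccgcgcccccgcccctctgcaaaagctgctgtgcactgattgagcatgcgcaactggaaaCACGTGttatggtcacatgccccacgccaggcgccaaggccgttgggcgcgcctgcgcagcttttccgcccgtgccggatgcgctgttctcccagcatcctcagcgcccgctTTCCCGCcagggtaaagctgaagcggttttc
Hormad1: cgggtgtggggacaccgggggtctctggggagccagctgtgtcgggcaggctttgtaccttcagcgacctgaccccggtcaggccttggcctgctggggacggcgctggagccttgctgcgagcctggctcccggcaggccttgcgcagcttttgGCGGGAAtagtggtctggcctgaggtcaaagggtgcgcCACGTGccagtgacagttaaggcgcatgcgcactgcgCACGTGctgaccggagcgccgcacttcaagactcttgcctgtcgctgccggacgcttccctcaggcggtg
Msh5: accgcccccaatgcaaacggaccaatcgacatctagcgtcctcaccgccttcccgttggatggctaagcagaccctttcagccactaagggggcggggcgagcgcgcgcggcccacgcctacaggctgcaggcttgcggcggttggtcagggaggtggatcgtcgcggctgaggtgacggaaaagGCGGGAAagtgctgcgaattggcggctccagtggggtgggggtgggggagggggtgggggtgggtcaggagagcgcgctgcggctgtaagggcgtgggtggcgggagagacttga
Sycp1: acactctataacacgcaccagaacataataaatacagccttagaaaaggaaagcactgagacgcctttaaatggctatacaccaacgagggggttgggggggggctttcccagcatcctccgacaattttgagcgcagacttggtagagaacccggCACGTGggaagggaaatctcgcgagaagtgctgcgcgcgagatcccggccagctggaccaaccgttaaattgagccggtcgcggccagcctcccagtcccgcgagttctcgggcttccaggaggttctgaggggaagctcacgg

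Of the 5 germline genes with both motifs, the 3 shown had almost no RNA in either line. Stag3, a cohesin subunit of meiosis, was at a mean of 0.0160 CPM in scramble and 0.0335 CPM in shMCT-1, both under the floor of 3 counts, and Slc25a31 and Hormad1 were at 0 in all 8 libraries. The 23 genes under 1 CPM summed to 0.547 to 0.803 CPM in the scramble libraries and to 1.06 to 1.30 CPM in the shMCT-1 libraries, which do not overlap. The separation rested on 1 gene: without Mov10l1 the other 22 summed to 0.519 to 0.707 CPM in scramble and to 0.687 to 0.870 CPM in shMCT-1, which overlap. Mov10l1 was the highest of the 23, a helicase of the germline small RNA pathway, and was at 0.182, 0, 0.0640 and 0 CPM in scramble and at 0.412, 0.512, 0.302 and 0.592 CPM in shMCT-1. At 19.8 to 33.1 counts for 1 CPM these sums stand for few reads, and they were not tested.

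The other 2 germline genes, Sycp1 and Msh5, passed the filter, Sycp1 only through the scramble libraries, so its difference is given without a test. Sycp1, a protein of the synaptonemal complex, was at 2.58, 2.45, 1.63 and 2.69 CPM in scramble and at 0.503, 0.341, 0.504 and 0.319 CPM in shMCT-1. Msh5, a MutS homolog of meiotic recombination, was at 8.46, 6.31, 7.17 and 7.74 CPM in scramble and at 3.07, 3.16, 2.22 and 1.73 CPM in shMCT-1. Its log2 fold changes were -1.20 (SE 0.20, edgeR adjusted p = 0.000867) with IgG and -1.86 (SE 0.21, edgeR adjusted p = 0.000105) with anti-IL-6R, and their cause was not tested.

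Of the 10 PRC1.6 genes 8 had a RefSeq window (Rybp and Yaf2 had no entry). CACGTG was found in 2 of the 8 (25%, against 8.09% of all genes), Max (first letter 3 bases before the start, at position -3) and Tfdp1 (position -231). TTCCCGC and AGGTGTGA were found in 0 of 8, against 5.29% and 1.48% of all genes. A match is not a binding site.

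The genes beside E2f6 and Mga were measured to see how far along the chromosome the line difference went. Within 1 Mb of E2f6, 8 of 39 genes were tested, with 1 higher and 5 lower in shMCT-1 with IgG and 1 higher and 6 lower with anti-IL-6R, and medians of -0.59 and -0.60. These were 62.5% and 75.0% lower, against 26.2% and 27.3% of all genes. All 8 had counts in both lines. On the left, Lpin1 (lipin, an enzyme of lipid synthesis), was at 35.9 to 38.7 CPM in scramble and 18.0 to 21.3 CPM in shMCT-1, with -0.98 (SE 0.09, edgeR adjusted p = 4.2e-05) and -0.82. On the right, Pqlc3 had -0.24 (edgeR adjusted p = 0.0574) and -0.50 (edgeR adjusted p = 0.00212), and Pdia6, a protein disulfide isomerase, was the 1 gene called higher, at 0.55 and 0.62. Trib2, the farthest on the left, had -1.17 and -1.79.

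Within 1 Mb of Mga, 44 of 68 genes were tested, with 7 higher and 23 lower with IgG and 7 higher and 25 lower with anti-IL-6R, and medians of -0.42 and -0.51. These were 52.3% and 56.8% lower, against 26.2% and 27.3% of all genes. The calls with IgG include genes that passed the filter through 1 line only, so the shares are a description. Ltk is such a gene among the higher ones. Among the lower ones are Sptbn5 (1.04 to 1.52 CPM in scramble, 0.149 to 0.278 CPM in shMCT-1) and Gm26899 (2.71 to 4.28 and 0 to 0.784 CPM). The nearest on the right, Mapkbp1, was at 23.5 to 26.3 CPM in scramble and 9.37 to 10.8 CPM in shMCT-1, with -1.22 (SE 0.10, edgeR adjusted p = 2.1e-05) and -1.19, so it was lower in the line where Mga had RNA. On the left, Tyro3 (-0.13 and -0.22) and Rpap1 (-0.23 and -0.24) did not pass in the main fit. With anti-IL-6R Rpap1 did pass in edgeR's exact test (adjusted p = 0.0388) and with the 4 libraries compared alone (edgeR adjusted p = 0.0389). Also on the left, Ltk, a receptor tyrosine kinase, was at 0, 0.0415, 0 and 0 CPM in scramble and at 1.51, 2.05, 1.51 and 1.00 CPM in shMCT-1 and passed the filter only through shMCT-1. Jmjd7 had -0.19 and -0.50 (edgeR adjusted p = 0.355 and 0.0297) and Gm28042, with which it shares 1307 exon bases on the same strand, -0.31 and 0.14. The Jmjd7 call with anti-IL-6R was lost in DESeq2 (adjusted p = 0.0796), without a filter (0.0582), and without either library of scramble + anti-IL-6R or of shMCT-1 + anti-IL-6R (0.0558 to 0.162).

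Both chromosomes leaned the same way as these neighborhoods. On chromosome 12, 245 of 482 tested genes were lower and 49 higher with IgG (50.8% lower, against 26.2% of all genes), with a median of -0.36, and on chromosome 2, 508 of 1001 were lower (50.7%) and 110 higher, with a median of -0.36. The median over all genes was 0.0108. E2f6 and Mga, chosen for this contrast, were among the genes tested on chromosomes 12 and 2.

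**Figure D5:**
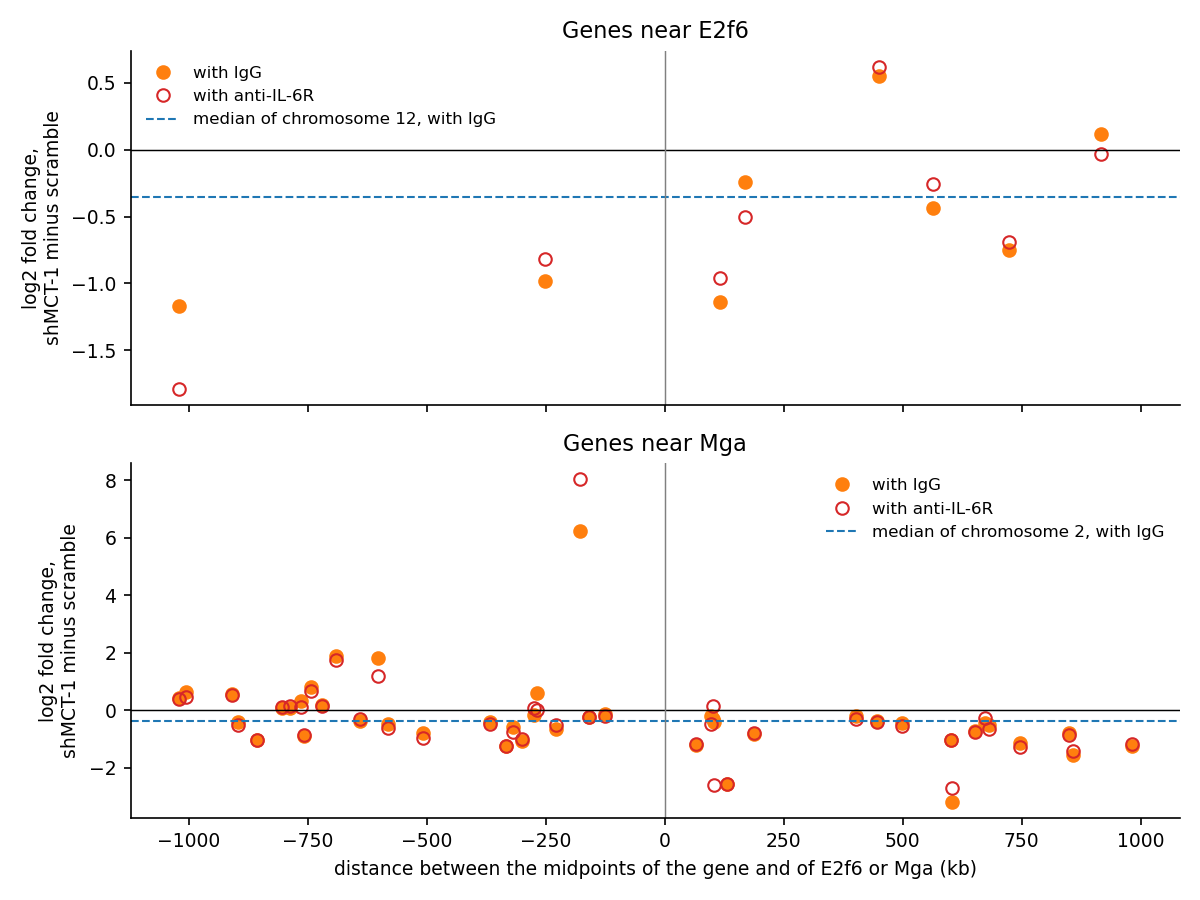
Log2 fold change between shMCT-1 and scramble of the tested genes within 1 Mb of E2f6 (top) and Mga (bottom), against the distance between gene midpoints in kb; filled points are with IgG, open points with anti-IL-6R, and the dashed line is the median of the chromosome with IgG. Most points near either gene lie below 0, and Ltk, at 6.24 and 8.03 from near-zero counts in scramble, lies highest.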

How the data were processed

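Poly(A) RNA of 8 cultures of 4T1 cells was sequenced after a kit whose adapters carry molecular identifiers; whether these were used in counting is not given in the sources used here. The authors used cutadapt 1.18 for trimming, STAR 2.7.0d for alignment to mm10 and RSEM for the expected counts per gene that they deposited (annotation GENCODE M19), with no normalization; 29.6% of the values above 0 were not whole. Genes were named with GENCODE M21 on GRCm38, which matched 54409 of 54532 identifiers. The expected counts were rounded and fitted in edgeR 4.0.16 (R 4.3.3), with the quasi-likelihood F test, TMM factors and 1 model of the 4 groups, over the 12704 genes above 1 CPM in at least 2 libraries. A gene was called at a Benjamini-Hochberg adjusted p under 0.05 over all genes tested. Coefficients are log2 fold changes with standard errors. CPM used the library total, and levels per length used the union of a gene's exons in M21. E2f6 and Mga were described without a test between the lines. The members and lists were chosen with earlier results of these data known.

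Samples were grouped by the labels. Depth was 19839299 to 33063570 counts a library, so 3 counts, the floor used for a gene at 0, were 0.0907 to 0.151 CPM; bounds and intervals (95%) cover counting error only. Data were simulated for all 8 libraries from the mean level of each gene, with 200 of 12704 genes changed 2-fold in shMCT-1. In the line comparison with IgG the fit recovered 76.5% of the 200 and called 11 unchanged genes. Far fewer genes were changed there than the 54.4% called in the real data, so 76.5% is not the recovery for these data. Alternatives were DESeq2 1.42.0, its size factors in edgeR (RLE), no filter, edgeR's filterByExpr, edgeR's exact test, the 4 libraries compared alone, a replicate block, and leaving out each library. Named genes were the 10 members, Mcts1, the 7 other subunits, up to 4 genes per list with the largest change called in both line comparisons, the nearest tested genes on each side of E2f6 and Mga, and the 5 genes most like each; Myc, Auts2, Mycn, Mlxipl, Stag3, Slc25a31, Hormad1, Sycp3, Mov10l1, Gm28037 and the cell type markers printed were picked after their values were seen. Sptbn5 and Gm26899 were picked in that way too. Copies were sought with blastn 2.17.0 (at least 95% identity over 200 bases). Promoter windows came from RefSeq, GRCm38.p6. A few genes that the naming rule covers are not reported here.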

Additional observations from a re-analysis of the deposited data

How the results depend on the processing

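Over the alternatives, 1071 of 1110 values of single genes kept their direction and their side of the threshold, 20 lost the call, 19 gained one and 0 turned direction while called; of 263 counts and levels 241 stayed within 1.5 times. The calls among the 8 PRC1.6 genes not chosen by level, 1 with IgG and 0 with anti-IL-6R, were 2 with IgG in DESeq2, 0 with IgG without a filter and 1 with anti-IL-6R with the replicate block. Leaving out 1 library gave 0 to 2 calls with IgG and 0 to 1 with anti-IL-6R, 3 to 5 and 2 to 5 for the other PRC1.6 subunits, 6 to 12 and 4 to 9 for other PRC1 subunits, 5 to 7 and 3 to 6 for the MAX network, 6 to 7 and 6 to 7 for the neighbors of E2f6, and 26 to 31 and 24 to 33 for those of Mga. Fewer libraries leave fewer degrees of freedom; otherwise the cause was not tested. The mean level of E2f6 in scramble was 24.4 to 25.5 CPM and that of Mga in shMCT-1 20.6 to 23.3 CPM without 1 library. Same-numbered libraries correlated between -0.0797 and 0.106 in their deviations from the group means, so the replicate numbers were not taken as a pairing; with the block 1 of the 8 PRC1.6 genes was called with IgG and 1 (Rnf2, log2 fold change 0.24, edgeR adjusted p = 0.0442) with anti-IL-6R. With 2 libraries a group, differences of the size of the standard errors were not detectable, and larger ones could also go uncalled.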
